A study of Homo sapiens with 2 samples.

Results

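The Polycomb and trithorax regulators of HOX genes were compared between HCT116 cells stably overexpressing HOXA5 short RNA and mock-transfected HCT116 cells. The 10 genes were EZH2, EED, SUZ12, JARID2, BMI1, RNF2, RING1, CBX2, CBX8 and KMT2A, and they were chosen by name. Their probes were those whose RefSeq accession belongs to 1 of these genes. This gave 15 of the 50599 non-control probes and 9 of the 10 genes. EED had no probe by this rule and is not analysed here. Of the 15 probes, 13 were well above background on both arrays and were compared, and they covered all 9 genes. In the whole data set, 17938 probes and 11994 named genes were compared.

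HCT116 is a widely used epithelial line from a human colon carcinoma. Mock cells were transfected with the pEB-mock vector, and HOXA5 short cells with the same vector holding HOXA5 short RNA, a non-coding transcript of the HOXA6-HOXA5 locus. The treatment text of the labels describes the HOXA5 short vector for both samples, and the groups rest on the titles and genotypes. Both were selected with blasticidin for 2 weeks, and total RNA was hybridized in a single color to 1 Agilent whole-genome array per group. Whether the selected cells were a pool or a clone is not given in the sources used here.

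HOX genes are held in an on or off state by opposing chromatin complexes. Polycomb repressive complex 2 (PRC2) methylates histone H3 at K27 through its catalytic subunit EZH2, which needs EED and SUZ12, and JARID2 is an accessory subunit that helps to bring the complex to its targets. Polycomb repressive complex 1 (PRC1) ubiquitinates histone H2A through the RING proteins RING1 and RNF2, which pair with a PCGF protein such as BMI1, and its CBX subunits bind methylated H3K27. The trithorax protein KMT2A, also called MLL, methylates H3K4 and maintains HOX expression. These complexes are general regulators of developmental genes and are expressed in most proliferating cells, including colon epithelium and its tumors.

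Values are processed signals, the background-corrected spot intensities of the scanner software, given with the error which that software reports. A log2 difference is HOXA5 short minus mock after each signal was divided by the 75th percentile of the non-control probes of its array, which was 35.7 in mock and 44.0 in HOXA5 short cells. With 1 array per group the differences have no replicate check, and no test could be made. The yardstick used instead was the spread of single spots, taken from 590 probes printed several times on each array. Its SD on the log2 difference was 0.28 at signals of 15 to 30, 0.23 up to 60, 0.21 up to 120, 0.15 up to 250, 0.16 up to 500 and 0.15 beyond. It holds no spread between cultures. HOXA5 was examined first as a check of the labels. Its single probe (NM_019102) gave 39.4 (error 4.32) in mock cells against 346 (error 34.6) in HOXA5 short cells, which is 2.83 on the log2 scale after scaling. Of the 8 markers of colon epithelial lines, 7 were well above background on both arrays, namely EPCAM, CDH1, KRT8, KRT18, KRT19, CDX1 and CDX2, and VIL1 was not. Of the 8 markers of blood, stromal, endothelial and muscle cells, COL1A1 and DES passed the same criterion and the other 6 did not.

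None of the 9 Polycomb and trithorax genes differed 2-fold between the arrays (0 of 9), and none differed 1.5-fold (0 of 9). Among all genes compared, 0.900% differed 2-fold and 4.38% differed 1.5-fold. The count at 1.5-fold depended on the scaling: JARID2 passed it with scaling to the median (0.61, where 5.24% of all genes passed) and without scaling (0.81, 10.8%), and JARID2 and RING1 with spike-in scaling (0.94 and 0.66, 20.7%). The log2 differences of the 9 genes ran from -0.30 for SUZ12 to 0.51 for JARID2, with 3 above 0 and 6 below 0. Their median was -0.06, against a median of -0.02 over all genes, 45.5% of which were above 0 and 54.5% below.

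**Figure D1:**
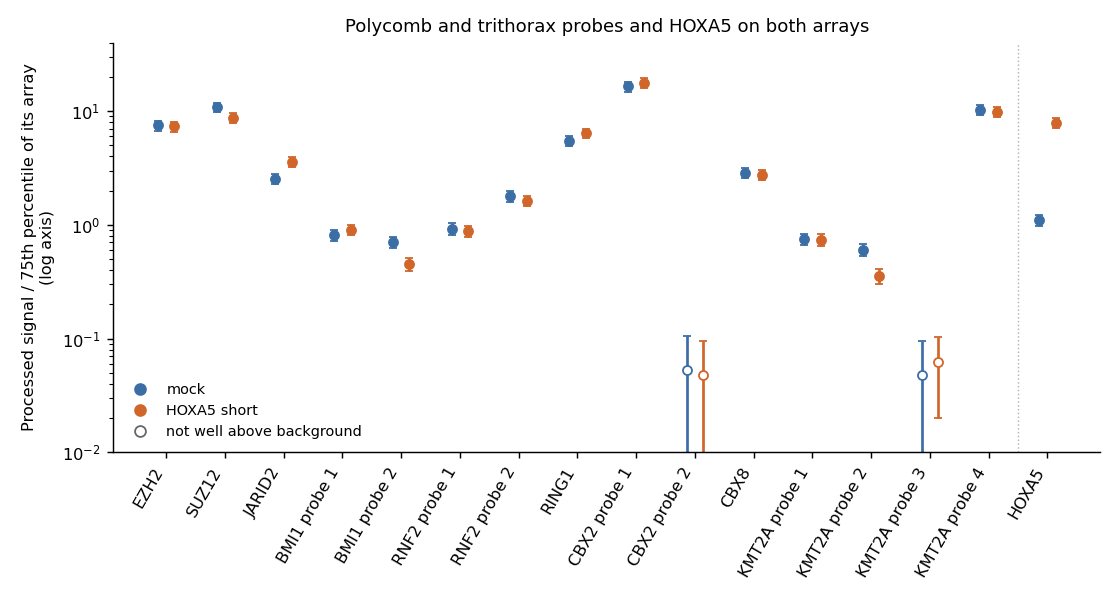
Processed signal divided by the 75th percentile of its array (log axis) for the 15 probes of the 9 genes and for HOXA5, on the mock array (blue) and the HOXA5 short array (orange). Bars are the errors of the scanner software, and open symbols were not well above background, and 3 of their 4 lower bars run off the axis. HOXA5 is separated by a wide gap, while the paired points of the other genes lie close together. Probe numbers of a gene follow the order of the accessions, and heights of different probes are not comparable.

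Of the PRC2 genes, the catalytic subunit EZH2 was nearly level between the arrays, scaled SUZ12 signals were somewhat lower with HOXA5 short RNA (not without scaling or with spike-in scaling), and JARID2 was higher. The EZH2 probe (NM_004456) gave 268 (error 26.8) in mock cells against 323 (error 32.4) in HOXA5 short cells. The ratio of these signals was close to that of the array percentiles, so the log2 difference was -0.03, well within the single-spot SD of 0.16, and it was 0.07 with scaling to the median, 0.27 without scaling and 0.40 with the spike-ins. EZH2 stood at position 6258 of 11994 when genes were ordered from the highest difference to the lowest.

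SUZ12, which holds PRC2 together, was measured by 1 probe (NM_015355) printed in 10 spots, the most closely measured member. Of these, 1 spot was flagged as an outlier by the scanner software and left out. Over the other 9 spots, the lowest, median and highest signals were 357, 385 and 410 in mock and 363, 393 and 404 in HOXA5 short cells. The raw signals thus overlapped fully, and their means were both 386. After division by the array percentiles, the median of the spots was 10.8 in mock and 8.93 in HOXA5 short cells, and all 9 HOXA5 short values were below the lowest mock value. The mean log2 difference was -0.30 ± 0.09 (SD, n = 9 spots of the same RNA), and all 9 spots were below 0. The flagged spot had signals of 307 (mock) and 371 (HOXA5 short) and a scaled log2 difference of -0.03. The value of SUZ12 therefore rests on the scaling: it was -0.21 when each array was scaled to its median, 0.0003 without scaling between the arrays and 0.13 with scaling to the spike-in controls. Of 589 probes printed several times, 22 (3.74%) had a difference as low as that of SUZ12 or lower, and the median of these probes was -0.06.

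**Figure D2:**
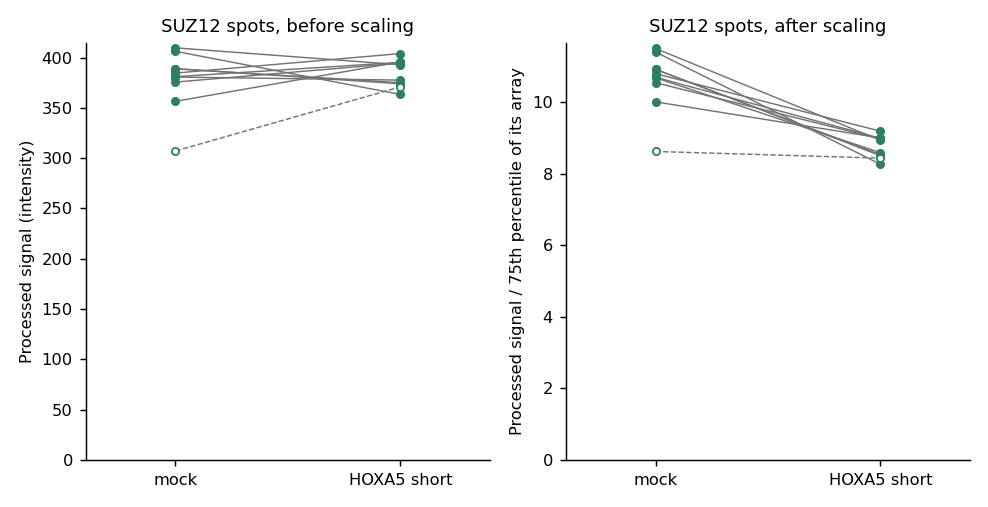
Signals of the SUZ12 spots on the mock and the HOXA5 short array, joined by spot, before scaling (left, processed signal) and after division by the 75th percentile of each array (right). Filled points are the 9 spots used, and the open point with a dashed line is the flagged spot. The raw signals of the 9 spots overlap between 363 and 404, and their scaled signals separate around medians of 10.8 and 8.93.

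JARID2 showed the largest difference of the 9 genes. Its probe (NM_004973) gave 90.1 (error 9.16) in mock cells against 158 (error 15.9) in HOXA5 short cells. After scaling this was 1.42-fold more with HOXA5 short RNA (log2 difference 0.51), against a single-spot SD of 0.21 at this signal. Its log2 difference was above 0 in every setting in which it was measured, from 0.36 with the local median subtracted to 0.94 with spike-in scaling. JARID2 stood at position 445 of 11994 from the highest difference, and it rests on 1 spot. Around this spot 0 of 32 well-measured spots differed 2-fold, but subtracting their median difference lowered JARID2 from 0.51 to 0.36.

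Of the PRC1 genes, the RING ligases and the chromodomain subunits differed by at most 1.17-fold with the reported scaling, and the probes of BMI1 disagreed. RING1 was measured by 1 probe (NM_002931), with 195 (error 19.6) in mock cells against 281 (error 28.2) in HOXA5 short cells. Its log2 difference was 0.22, against a single-spot SD of 0.15, and it was above 0 with every scaling tried, at 0.53 without scaling and 0.66 with the spike-ins. RNF2, the other RING ligase, had 2 probes for NM_007212. The first gave 32.9 (error 3.79) and 38.7 (error 4.36), and the second 63.6 (error 6.68) and 71.7 (error 7.54), in the order mock and HOXA5 short. The log2 differences were -0.07 and -0.13, so the probes lay within 0.06 of each other and both were smaller than their single-spot SDs of 0.23 and 0.21. The RNF2 mean of -0.10 became 0.20 without scaling and 0.33 with spike-in scaling.

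BMI1, the PCGF subunit best known for the repression of the CDKN2A locus, had 2 probes for the same accession (NM_005180). The first gave 29.0 (error 3.33) in mock cells against 39.9 (error 4.38) in HOXA5 short cells, which is 0.16 on the log2 scale after scaling. The second gave 25.1 (error 2.98) in mock and 19.998 (error 2.71) in HOXA5 short cells, with a log2 difference of -0.63. The probes thus pointed in opposite directions, 0.79 apart, and the sign of the BMI1 mean of -0.24 is that of the second probe. Of the 2647 genes with several probes compared, 7.59% had probes at least this far apart, and the median distance was 0.24. The brighter BMI1 probe alone gave 0.16, and the mean was 0.07 without scaling and 0.19 with the spike-ins.

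CBX2 and CBX8 are chromodomain subunits that read methylated H3K27. The CBX2 probe for NM_005189 gave 589 (error 59.0) in mock cells against 784 (error 78.4) in HOXA5 short cells, which is 0.11 on the log2 scale after scaling. The CBX2 probe for NM_032647, another transcript of the gene, was not well above background on either array, with 1.88 (error 1.88) and 2.08 (error 2.09), so no difference is given for it. CBX8 (NM_020649) gave 102 (error 10.3) in mock and 121 (error 12.2) in HOXA5 short cells, with a log2 difference of -0.06 that turned to 0.04 when the arrays were scaled to their medians, 0.24 without scaling and 0.37 with the spike-ins. With the reported processing both differences were smaller than the single-spot SD, which was 0.15 for CBX2 and 0.21 for CBX8. CBX2 was 0.21 with scaling to the median, 0.29 with the local median subtracted, 0.41 without scaling, 0.54 with the spike-ins and -0.02 without a filter, which lets in its dim probe.

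KMT2A, the trithorax member, had 4 probes, and the size of its difference depended on which was read. The brightest (NM_005933) gave 368 (error 36.8) in mock cells against 433 (error 43.4) in HOXA5 short cells, which is -0.07 on the log2 scale after scaling. A probe for NM_001197104 gave 26.7 (error 3.18) in mock and 32.7 (error 3.76) in HOXA5 short cells, with a log2 difference of -0.01. A further probe for that accession gave 21.6 (error 2.77) in mock and 15.7 (error 2.45) in HOXA5 short cells, with a log2 difference of -0.76 that was 2.69 times its single-spot SD. The last probe (NM_005933) was not well above background on either array, at 1.69 (error 1.69) and 2.74 (error 1.85). The mean of the 3 probes compared was -0.28, which thus came mostly from 1 dim probe. This mean was 0.02 without scaling and 0.15 with spike-in scaling, and the brightest probe alone gave -0.07.

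**Figure D3:**
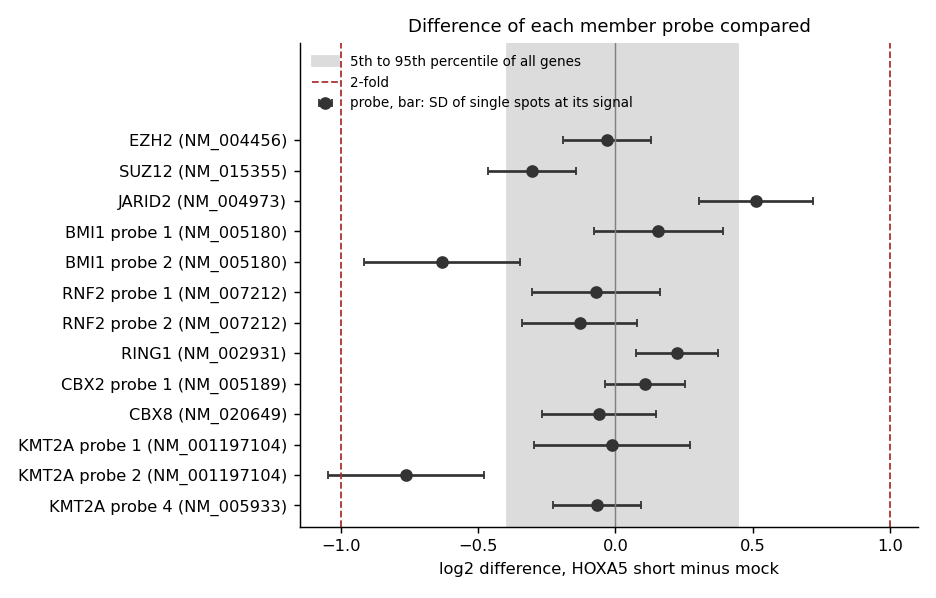
log2 difference, HOXA5 short minus mock, of the 13 probes compared, with bars of 1 SD of single spots at the signal of the probe. The gray band runs from the 5th to the 95th percentile of all genes (-0.39 to 0.45), and dashed lines mark 2-fold. JARID2 lies above the band, and 1 probe each of BMI1 and KMT2A lies below it. The band is of gene values, and single probes spread more widely (1.5-fold: 6.25% of probes, 4.38% of genes). No probe reaches 2-fold.

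By probe, 4 of the 13 compared lay above 0 and 9 below 0. No member probe differed 2-fold (0 of 13), where 1.38% of all probes compared did. The 2 that differed 1.5-fold were the BMI1 and KMT2A probes at -0.63 and -0.76 (15.4% of 13, against 6.25% of all probes in either direction and 2.31% lower). Both had signals from 15 to 30, a range that held 3 of the member probes and in which 11.8% of all probes differed 1.5-fold and 5.48% were lower by that much. Differences beyond 1 single-spot SD were found for 5 of the 13 (38.5%, against 39.4% of all probes), and beyond 2 SD for 3 of the 13 (23.1%, against 12.5%). The 3 were JARID2, BMI1 and KMT2A probes. Probes averaged over several spots were held to the same single-spot SD, although a mean of spots varies less. SUZ12, a mean of 9 spots, thus counted at 1.89 times that SD. None of the spots of the 13 probes lay in an area of the array where at least 10% of the surrounding spots differed 2-fold. Only 2.42% of all spots lay in such areas.

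The other genes of the pathway were taken from 5 lists of 64 genes. Of these, 55 had a probe well above background on both arrays, and 0 of the 55 differed 2-fold (0.900% of all genes) or 1.5-fold (4.38%). At 1.5-fold the count was 2 with scaling to the median, 6 without scaling and 11 with the spike-ins. Of all genes, 5.24%, 10.8% and 20.7% passed in these settings. It was 1 with scaling to detected probes (4.5% of all genes), 1 with the brightest probe (4.63%) and 1 of 56 in the deposited values (7.27%). Without a filter 3 of 63 passed (12.7% of all genes), and 2 of the 63 differed 2-fold (4.69%). With the reported processing the differences of the 55 genes were 27 above 0 and 28 below 0, with a median of -0.0008.

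Among 9 other PRC2 genes compared, 4 were above 0 and 5 below 0, with a median of -0.01. EPOP, a PRC2 accessory subunit, was the highest at 0.28, with 1009 in mock and 1516 in HOXA5 short cells. AEBP2, another accessory subunit, was the lowest at -0.17, with 128 and 140. PHF19, which binds methylated H3K36, had a mean of 0.17 over 2 probes. Of all PRC2 genes compared, JARID2 (0.51) had the highest difference and SUZ12 (-0.30) the lowest with the reported processing.

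Among 19 other PRC1 genes compared, 10 were above 0 and 9 below 0, with a median of 0.02. The ends of the range were formed by the related corepressors BCORL1 and BCOR. BCORL1 had signals of 120 (mock) and 219 (HOXA5 short) and a scaled log2 difference of 0.56, against a single-spot SD of 0.15. BCOR gave 22.6 and 19.95, a log2 difference of -0.48, against an SD of 0.28. The 6 genes compared of the PR-DUB complex, which removes ubiquitin from histone H2A, had 1 above 0 and 5 below 0, with a median of -0.13. They ran from -0.21 for OGT to 0.16 for FOXK2, whose 3 probes gave 0.16, 0.16 and 0.17.

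Among 16 other trithorax and COMPASS genes compared, 8 were above 0 and 8 below 0, with a median of -0.0003. KMT2C, an H3K4 methyltransferase related to KMT2A, was the lowest at -0.57. Its probes compared gave -0.79, at 18.9 in mock and 13.5 in HOXA5 short cells, and -0.35, at 107 and 104. PAGR1, a subunit of the KMT2C and KMT2D complexes, was the highest at 0.54, with 40.03 and 71.6. WDR5, a core subunit shared by the KMT2 complexes, gave 582 and 967, a log2 difference of 0.43 against a single-spot SD of 0.15. WDR5 was singled out after its values were seen. The 5 demethylases of H3K27 and H3K4 compared had 4 above 0, 1 below 0 and a median of 0.02. KDM5B was the lowest at -0.13, with probes at -0.39 and 0.13, and KDM6B was the highest at 0.07.

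**Figure D4:**
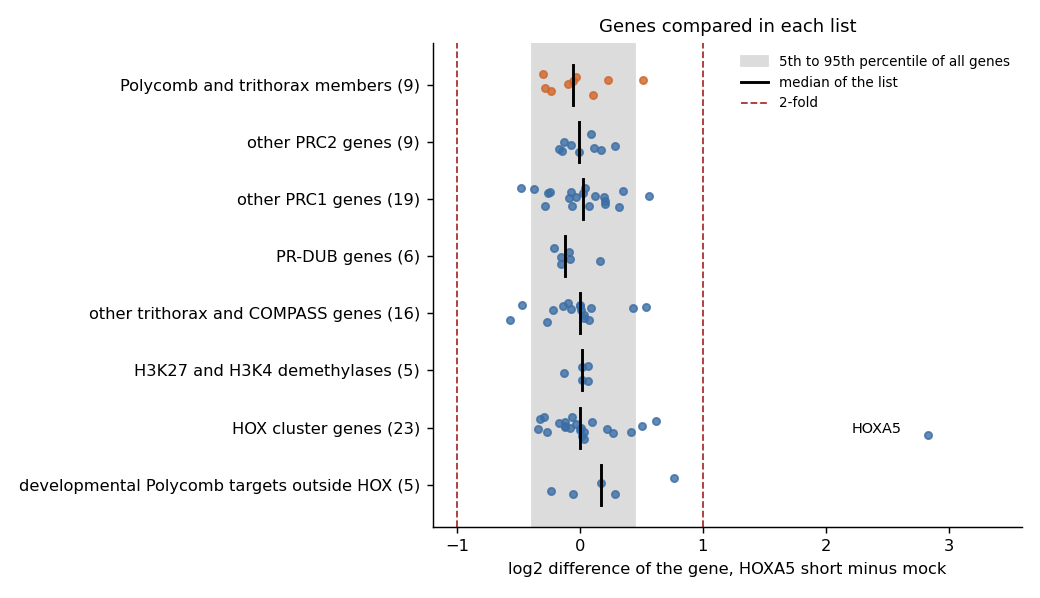
log2 difference, HOXA5 short minus mock, of each gene compared in the 8 lists (number of genes in parentheses), with the median of each list as a black bar. The gray band runs from the 5th to the 95th percentile of all genes, and dashed lines mark 2-fold. The list medians lie between -0.13 and 0.17, and HOXA5 at 2.83 is the only listed gene past 2-fold with the reported processing.

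The HOX genes are the targets after which these regulators were first described. Of the 39 HOX genes, 23 had a probe well above background on both arrays, and they were unevenly spread over the clusters: 9 of 11 in HOXA, 9 of 10 in HOXB, 4 of 9 in HOXC and 1 of 9 in HOXD. The exception in HOXD was HOXD8, with 14.0 in mock and 26.6 in HOXA5 short cells. Of the HOXD genes not compared, HOXD3 was well above background on 1 array and the others on neither. The clusters thus differed in how many of their genes could be compared. Without HOXA5, the other 22 HOX genes had a median log2 difference of -0.02, with 11 above 0, from -0.34 for HOXA11 to 0.62 for HOXD8. Their medians by cluster were 0.01 for the other 8 genes of HOXA, -0.03 for 9 genes of HOXB and -0.20 for 4 genes of HOXC. HOXA5 was the only HOX gene among the 23 that differed 2-fold with the reported processing, where 0.642% of all genes were at least 2-fold higher. With spike-in scaling HOXD8 passed as well, at 1.05, where 2.98% of all genes differed 2-fold. In the deposited values 2 of 25 HOX genes passed (2.58% of all genes), and 5 of 39 without a filter on dim probes (4.69%). HOXD8 rests on 1 dim spot, with a single-spot SD of 0.28 at its signal. Its difference fell to 0.14 with normexp background correction. In the other settings in which it was measured, it ran from 0.57 with the local median subtracted to 1.05. As HOXA5 short RNA shares sequence with HOXA5 mRNA, the HOXA5 value may hold RNA made from the vector, and which of the transcripts the probe read was not tested. By qPCR, the paper reports more HOXA5 short RNA in its stably transfected HCT116 cells and unchanged coding HOXA5 mRNA.

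All these differences are relative to each array's 75th percentile. Among the 11994 genes, 77 were higher by 2-fold or more (0.642%) and 31 lower (0.258%). The split was 108 and 20 with scaling to the median, 349 and 9 with scaling to the spike-in controls, and 213 and 11 without scaling between the arrays. The median of all genes was 0.41 with the spike-ins and 0.28 without scaling, and the 9 member genes moved with it, to medians of 0.37 and 0.24. Relative to the median of all genes, SUZ12 (-0.28), KMT2A (-0.26), JARID2 (0.53), RING1 (0.25) and CBX2 (0.13) kept their sign in every setting in which they were measured, while EZH2, BMI1, RNF2 and CBX8 changed sign in 1 setting each. Settings that shift all genes equally leave these relative values unchanged by construction. These were scaling to the median, to detected probes or to the spike-ins, and no scaling. For genes with a single probe, the filters, the brightest probe and the removal of uneven areas changed only the median of all genes. The sign being kept in these settings is therefore no check. For KMT2A the sign was kept only barely in some settings. Its value relative to all genes was -0.04 with the brightest probe and -0.007 without a filter.

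**Figure D5:**
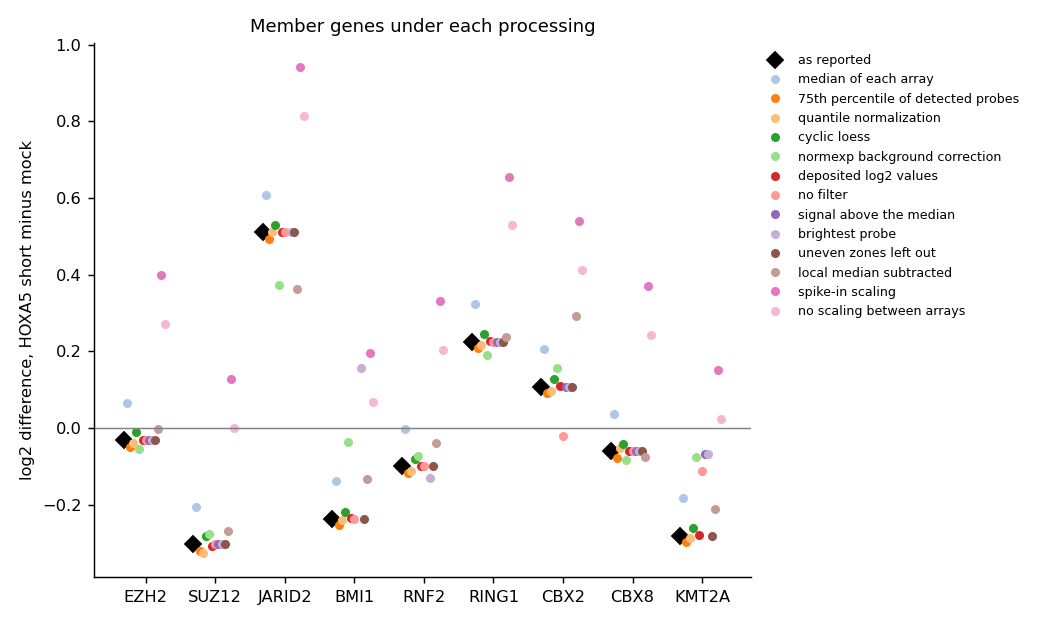
log2 difference, HOXA5 short minus mock, of the 9 member genes under the reported processing (black diamonds) and under each alternative (colored points). The points highest for each gene are those scaled to the spike-in controls, from 0.13 for SUZ12 to 0.94 for JARID2. No member reached 2-fold (a log2 difference of 1) in any setting.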

How the data were processed

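Both arrays were Agilent SurePrint G3 human arrays, and the groups were taken from the genotype labels. Per the file headers, the authors quantified the spots with Feature Extraction 11.5.1.1, and the deposited scanner output holds the processed signal as an intensity on a linear scale, with an error and flags. The authors also deposited log2 values of 19461 probes, centered on the mean of each probe (column medians 0.006 and -0.006, scaling not stated). Their differences shifted by 0.001 from those computed here, with a correlation across probes of 1.00.

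Flagged outlier spots were left out, spots of a probe were averaged as log2 values, and the 75th percentile over non-control probes was subtracted. Probes entered the comparison if both arrays flagged them as well above background and their signals exceeded the 20th percentile of each array. A gene was the mean of its probes compared. Accessions were matched without versions to RefSeq genes of GRCh38.p14, which named 59.3% of probes. The array design used hg19, so no coordinates are printed. With 1 array per group the number of arrays limits the precision, and no spot was saturated (0).

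The members and lists were chosen with earlier results of these data known. Some genes of the list of developmental targets are not reported here. Named were all members, HOXA5, and in each list the genes with the highest and lowest values and the 2 largest. WDR5 and CDKN2A fall outside this rule. So do LHX2, HOXD3 and several cell type markers, which were named only to say whether they were well above background. Probes around a spot were those within 4 rows and columns, with at least 10 of them. Alternatives were scaling to the median or to detected probes, quantile and cyclic loess normalization, normexp (offset 50, limma 3.58.1), the deposited values, other filters, the brightest probe, the removal of uneven areas and the subtraction of the median difference of the surrounding spots. Scaling to 8 spike-in probes and no scaling were added after seeing the data. The averaging was tested on simulated data in which all changes put in were larger than 2-fold. It was not tested on differences as small as those of the members.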

Additional observations from a re-analysis of the deposited data

How the results depend on the processing

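No paired analysis was possible because each group had 1 array and no result came from a test. Changes in a log2 value were judged against 0.19, the pooled SD of single spots. The count of member genes past 2-fold was 0 in every alternative. Past 1.5-fold it was 0 with the reported scaling, 1 with scaling to the median, 1 without scaling, 2 with spike-in scaling and 0 in the other alternatives; past 3-fold it was 0 with the reported scaling. HOXA5 was 1.85 with normexp, 3.26 with spike-in scaling and 3.13 without scaling, and stayed past 2-fold in each. Among member genes, normexp moved BMI1 to -0.04 and KMT2A to -0.07, the brightest probe moved them to 0.16 and -0.07, and the filter on signals above the median, which left out JARID2, BMI1 and RNF2, moved KMT2A to -0.07.

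The genes past 2-fold numbered 108 as reported, 42 with normexp, 324 in the deposited values, 1013 without a filter, 49 above the median signal, 68 without uneven areas, 358 with spike-in scaling and 224 without scaling; the thresholds of 1.5-fold and 3-fold gave 525 and 27 by construction. The list medians moved by construction when the scaling changed. With the spike-ins they were 0.37 for the members, 0.42 for other PRC2 genes, 0.45 for other PRC1 genes, 0.31 for PR-DUB, 0.43 for other trithorax and COMPASS genes, 0.45 for the demethylases, 0.43 for HOX genes and 0.60 for developmental targets. Without scaling they were 0.24, 0.29, 0.32, 0.18, 0.30, 0.32, 0.30 and 0.47 in the same order. Without a filter, the median of the developmental targets was -0.054 over 13 genes, 8 of which were not compared otherwise. Apart from these constructions, the cause was not tested. Low signal limits what the arrays can show, with a single-spot SD of 0.30 for signals under 15.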

Other observations

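Developmental Polycomb targets outside the HOX clusters mostly gave no signal well above background on both arrays. Of 13 such genes, 5 had a probe well above background on both: NKX2-5, PAX2, LHX2, CDKN2A and PAX6. The other 8 were not compared. The median of the 5 was 0.17, with 3 above 0 and 2 below 0, and it was 0.10 with normexp, 0.02 with the local median subtracted and 0.06 without uneven areas of the array, which removed PAX2. The list was shortened after its values were known, for reasons unrelated to them, so its median describes these genes alone. NKX2-5, a cardiac transcription factor, had signals of 2325 (error 233) in mock and 4872 (error 487) in HOXA5 short cells, which is 0.76 on the log2 scale after scaling against a single-spot SD of 0.15, and 0 of 22 well-measured spots around it differed 2-fold. NKX2-5 rests on 1 spot, and it was past 2-fold without scaling (1.07) and with spike-in scaling (1.19). PAX6, an eye and neural transcription factor, was the lowest at -0.23, from 1 dim probe with 9.30 and 9.77. CDKN2A, the locus that BMI1 is known to repress, had probes for 2 transcripts at -0.16 and 0.05, and was singled out after its values were seen.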
